A study of Mus musculus with 8 samples.

Results

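Mesothelial genes were followed in lungs of mice in which a human TGF-β1 transgene had been switched on. The set is Wt1, Msln, Upk3b, Upk1b, Lrrn4 and Bnc1, 6 of 25734 named genes, and each was read from every probe that carries its symbol in the deposited table. That gave 7 of 39341 probes, 2 for Msln and 1 for each other gene, and all 6 genes were measured on all 8 arrays. The genes were listed by name and not by how they changed, but with earlier results of these data known. The mesothelium is the single layer of cells that covers the lung surface as the visceral pleura and lines the other body cavities. It lowers friction, keeps keratin filaments although it derives from mesoderm, and in development gives rise to fibroblast and smooth muscle lineages. TGF-β is known as an inducer of mesothelial-to-mesenchymal change, in which these cells lose their surface proteins and layered form.

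Whole lungs of 4 wild-type (WT) mice and 4 TGFb1-Tg mice, all B6J and aged 10 weeks in the labels, were each put on 1 two-channel Agilent array, with lung RNA in Cy5 and a pool of control RNA in Cy3. Per the labels' protocols doxycycline at 1 mg/ml of drinking water induces the active human TGF-β1, and harvests ran from day 2 to day 14 over the whole study. The file headers give 14 days for every lung, and doxycycline for the TGFb1-Tg lungs alone: the WT lungs are there on water. By the headers, doxycycline itself and the induced transgene thus cannot be told apart in any difference given here. The promoter that drives the transgene is not given in the sources used here. On the pools the sources differ: by the labels every array had the same wild-type pool, whereas by the headers WT lungs were set against 4 pooled WT lungs and TGFb1-Tg lungs against 4 pooled transgenic lungs, all given water. Xist, which coats the inactive X, shows that 2 RNAs were in use, since its pool intensity lay between 1.04 and 1.13 beside WT lungs and between 0.01 and 0.02 beside TGFb1-Tg lungs. Among the lungs Xist was at 4.6 in WT replicate 1 and at 0.04 or less in the other 7 lungs. By this gene alone, WT replicate 1 was female and the other 7 lungs were male, and only the pool beside WT lungs held female RNA. Mouse Tgfb1 had lung intensities of 0.61 to 0.76 in WT and of 1.32 to 1.7 in TGFb1-Tg, read by a mouse probe whose binding of the human transcript was not tested. Nothing in the labels states that the 4 lungs of a group came from separate cages or days, and the number of arrays limits the precision of all values.

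Relative to the pool on the same array, Wt1, Bnc1 and Upk1b were lower in the TGFb1-Tg lungs, and Msln, Lrrn4 and Upk3b were not called. Values are log2 of the lung over the pool intensity of the same array, and each difference is TGFb1-Tg minus WT, given ± its standard error (SE), over 4 lungs per group. The WT and TGFb1-Tg arrays had different pools, so a difference is not one between the lungs alone. No error of either pool enters its SE, interval or adjusted p. By the headers the WT lungs and their pool were alike, and whether that pool held the same 4 lungs is not stated. If it did, WT ratios average near 0 by construction. The WT means of the members lay between -0.04 and 0.03. Each difference is thus close to the mean ratio of the TGFb1-Tg lungs over their own pool, which for Wt1 was -1.15. A gene was called at a limma adjusted p under 0.05 over all 25647 genes tested. So 3 of 6 members were called lower and 0 higher, where 19.8% of all genes tested were called lower and 19% higher. In the lung channel alone, with each array centred on its median, only Wt1 was called lower, and Msln was called higher. The shares of all genes were then 18.9% and 29.9%. The median difference of the 6 members was -0.33, and that of all genes 0. RNA of whole lung does not tell fewer mesothelial cells from less RNA of a gene per cell.

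**Figure D1:**
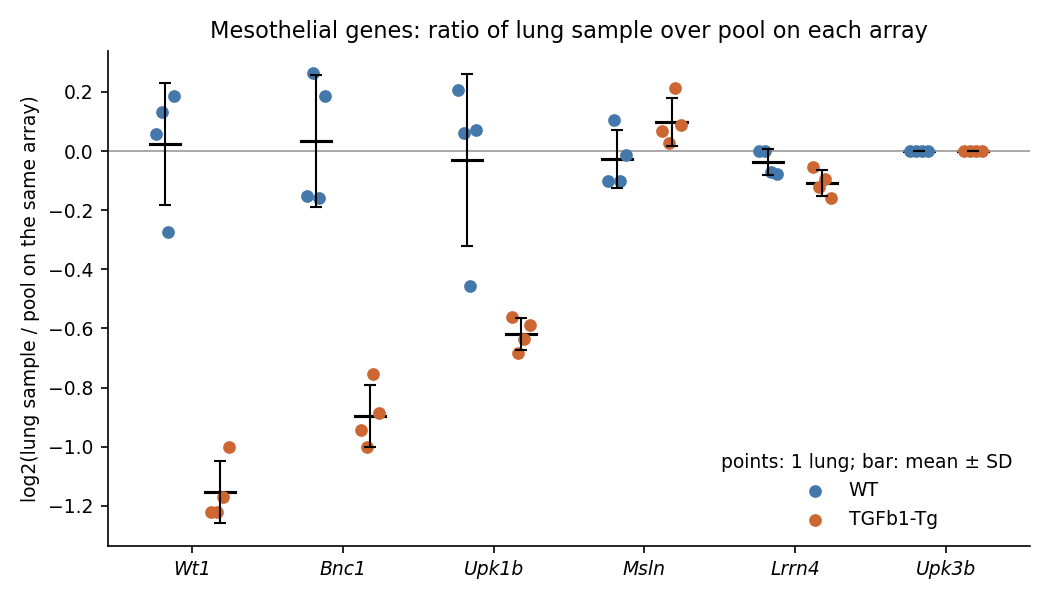
Log2 of lung over pool intensity (y axis) for the 6 mesothelial genes (x axis), with 1 point per lung, WT in blue and TGFb1-Tg in orange, and bars for the mean ± SD of 4 lungs. The orange points of Wt1, Bnc1 and Upk1b all lie below the blue ones, and those of Msln, Lrrn4 and Upk3b overlap them.

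The transcription factors had the largest falls of the 6. Wt1 encodes a zinc finger transcription factor that marks mesothelium and epicardium and is needed for their formation. Its lung intensity was 0.25, 0.23, 0.19 and 0.25 in WT replicates 1 to 4, and 0.12, 0.12, 0.12 and 0.13 in TGFb1-Tg replicates 1 to 4. All 4 TGFb1-Tg lungs were thus below the lowest WT lung, and 3 of them had the same reading. These intensities are not scaled between arrays. The median lung intensity of all probes was 0.15 to 0.18 on WT arrays and 0.13 to 0.14 on TGFb1-Tg arrays. For how many of all genes the unscaled lung intensities of the groups did not overlap was not counted. The log2 ratio was 0.02 ± 0.21 in WT (SD, n = 4) and -1.15 ± 0.11 in TGFb1-Tg (SD, n = 4). The difference was -1.18 ± 0.11 (SE), or 2.26-fold lower with a 95% interval of 1.89-fold to 2.71-fold (limma adjusted p = 0.000186). Of all genes tested, 260 had a lower difference. In the authors' deposited table the p-value of the Wt1 ratio was 6.5e-08 or less on each TGFb1-Tg array and 0.13 or more on each WT array.

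Bnc1 encodes basonuclin 1, a zinc finger protein known from keratinocytes and germ cells and expressed in mesothelium. Its lung intensity was 0.18, 0.24, 0.17 and 0.25 in WT and 0.13, 0.13, 0.16 and 0.13 in TGFb1-Tg. In these unscaled intensities the groups did not overlap, although TGFb1-Tg replicate 3 came within a single 0.01 step of the lowest WT lung. The log2 ratio was 0.03 ± 0.22 in WT (SD, n = 4) and -0.90 ± 0.11 in TGFb1-Tg (SD, n = 4), a difference of -0.93 ± 0.12 (SE), or 1.91-fold lower (95% interval 1.58-fold to 2.3-fold, limma adjusted p = 0.000707). The spread of Bnc1 in WT was wide, with replicates 2 and 4 above their pool and replicates 1 and 3 below it. Bnc2, the other basonuclin gene, was lower by a smaller amount, at -0.25 ± 0.06 (SE, limma adjusted p = 0.0194). In the lung channel alone, with each array centred on its median, Bnc2 was at -0.14 and not called (limma adjusted p = 0.345).

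For Bnc1 and Lrrn4, a gene that was called lower and one that was not, the promoter window of the RefSeq table (GRCm38.p6, 250 bases before to 50 after the gene's start) is shown 5′ to 3′ on the gene's strand. Of the 6 genes, 3 were matched in that table, the third being Upk3b; Wt1, Msln and Upk1b are named only. Capitals mark matches, on either strand, to GGAATG, the core bound by the TEAD partners of YAP, or to CAGAC, a core bound by SMAD proteins, the transducers of TGF-β. These 2 motifs do not overlap in the windows shown.
Bnc1, chr7:81992250-81992549, minus strand: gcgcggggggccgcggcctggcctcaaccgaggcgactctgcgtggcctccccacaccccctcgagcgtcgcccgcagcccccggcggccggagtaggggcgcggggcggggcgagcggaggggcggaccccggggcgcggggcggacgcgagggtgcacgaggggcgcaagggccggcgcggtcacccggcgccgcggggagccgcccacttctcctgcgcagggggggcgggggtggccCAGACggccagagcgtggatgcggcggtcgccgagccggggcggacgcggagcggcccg
Lrrn4, chr2:132880813-132881112, minus strand: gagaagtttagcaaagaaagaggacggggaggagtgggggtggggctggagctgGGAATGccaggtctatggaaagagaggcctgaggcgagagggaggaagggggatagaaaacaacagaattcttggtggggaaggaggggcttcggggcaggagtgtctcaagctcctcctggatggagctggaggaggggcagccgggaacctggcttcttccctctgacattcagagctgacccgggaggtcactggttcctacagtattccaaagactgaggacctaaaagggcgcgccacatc
The Bnc1 window was 83.3% G and C with 50 CpG dinucleotides, and that of Lrrn4 58.0% with 7, where the medians over all 32851 windows were 52.7% and 7. The Bnc1 window held 1 match to CAGAC and 0 to GGAATG, and the Lrrn4 window held 0 and 1. Of all windows, 49.6% held CAGAC and 14.7% held GGAATG on either strand, so the matches are common letters and describe the windows only.

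Upk1b encodes a tetraspanin of the uroplakin family, membrane proteins that form the plaques of the bladder surface. Its lung intensity was 3.31, 2.68, 2.04 and 2.94 in WT and 2.19, 1.88, 2 and 1.86 in TGFb1-Tg. WT replicate 3 was the lowest WT lung and fell within the TGFb1-Tg range of intensities. The ratios did not overlap, with WT replicate 3 at -0.46 and the TGFb1-Tg lungs between -0.68 and -0.56. The difference was -0.59 ± 0.14 (SE), from -0.03 ± 0.29 in WT (SD, n = 4) to -0.62 ± 0.05 in TGFb1-Tg (SD, n = 4), or 1.5-fold lower with a 95% interval of 1.19-fold to 1.89-fold (limma adjusted p = 0.0137). In the authors' deposited table the p-value was under 0.05 on 3 of 4 TGFb1-Tg arrays, the exception being replicate 1 at 0.19. The ratios of these 3 genes did not overlap between the groups, which in this direction held for 19.1% of all genes tested. After quantile normalization of the ratios across arrays none of the 3 was called, with Wt1 at -0.83 (limma adjusted p = 0.0790), Bnc1 at -0.67 and Upk1b at -0.34. The other 9 settings of the ratio fit kept all 3 calls. Of those, only loess within arrays (Wt1 at -1.16) and 0.05 added to both channels (Wt1 at -0.92) moved the differences beyond rounding. The rest left the 3 differences as they were, so a call could change only through the error or the genes tested.

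**Figure D2:**
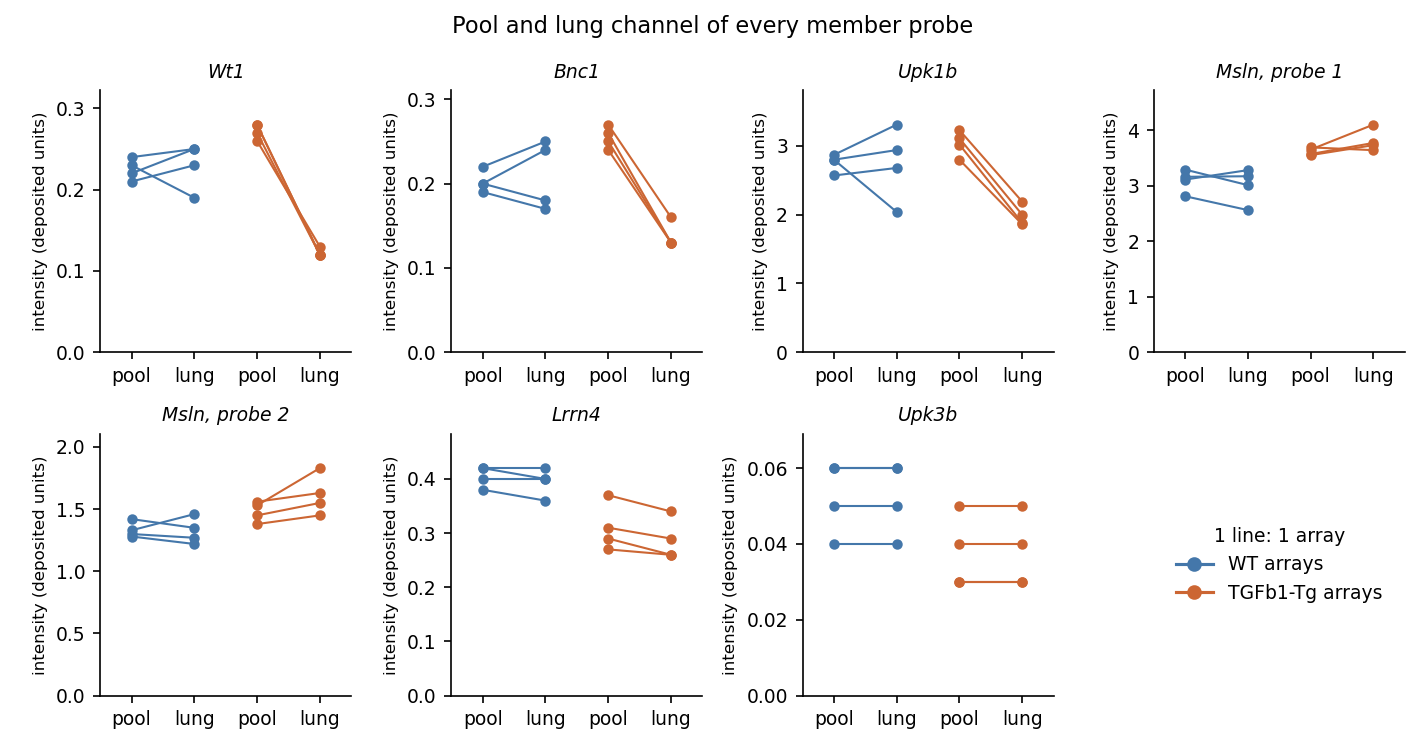
Deposited intensity (y axis, from 0) of the pool and lung channels (x axis) for each of the 7 probes, with 1 line per array, WT in blue and TGFb1-Tg in orange. The lines of Wt1, Bnc1 and Upk1b run down from pool to lung on all 4 TGFb1-Tg arrays, and those of Upk3b are flat at the 0.01 resolution of the file.

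Msln encodes mesothelin, a surface glycoprotein anchored by a lipid tail that binds the mucin Muc16. On its brighter probe the lung intensity was 3.01, 3.28, 2.56 and 3.17 in WT and 3.73, 3.64, 4.1 and 3.77 in TGFb1-Tg. Every TGFb1-Tg lung was above every WT lung in this unscaled channel, and how many of all genes did the same was not counted. The pool beside the TGFb1-Tg lungs was higher as well, at 3.55 to 3.69, against 2.81 to 3.29 beside the WT lungs. The second probe gave 1.22 to 1.46 in WT and 1.45 to 1.83 in TGFb1-Tg, and the log2 ratios of the 2 probes differed by at most 0.09 on any array. Averaged over probes, the log2 ratio was -0.03 ± 0.10 in WT (SD, n = 4) and 0.10 ± 0.08 in TGFb1-Tg (SD, n = 4). The difference was 0.13 ± 0.06 (SE, limma adjusted p = 0.154), with a 95% interval from -0.02 to 0.27. A rise of the ratio over 1.21-fold or a fall over 1.01-fold lies outside it. The interval holds no error of the pools and does not bound the change between the lungs. In the median-centred lung channel Msln was 1.42-fold higher (95% interval 0.23 to 0.77 in log2). Without WT replicate 2 the difference of the ratios was 0.17 and called (limma adjusted p = 0.0448, from 0.00779 to 0.571 over the alternatives).

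Lrrn4 encodes a membrane protein with leucine-rich repeats, described in neurons and in mesothelium. Its lung intensity was 0.42, 0.4, 0.4 and 0.36 in WT and 0.26, 0.34, 0.29 and 0.26 in TGFb1-Tg. Unscaled, the lungs of the groups did not overlap, and neither did the pools, which lay at 0.38 to 0.42 beside WT lungs and at 0.27 to 0.37 beside TGFb1-Tg lungs. The ratio therefore differed little, by -0.07 ± 0.03 (SE, limma adjusted p = 0.115, 95% interval -0.14 to 0.000944). The TGFb1-Tg arrays were dimmer in both channels. With each array centred on its median, the pool difference was -0.24 in place of -0.39, and the lung difference was -0.28 and not called. Upk3b, a uroplakin that is used as a mesothelial marker, was too dim for a ratio: its intensity was 0.04 to 0.06 in WT and 0.03 to 0.05 in TGFb1-Tg. Both channels held the same 2-decimal value on all 8 arrays, so that each deposited log2 ratio is 0. Rounding alone allows a log2 ratio between -0.49 and 0.49 on a TGFb1-Tg array, and no change of Upk3b was detectable within that range.

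The pools themselves differed in these genes. The pool of the TGFb1-Tg arrays had Wt1 at 0.26 to 0.28 against 0.21 to 0.24, Bnc1 at 0.24 to 0.27 against 0.19 to 0.22, and Upk1b at 2.8 to 3.23 against 2.57 to 2.87. Each pool is 1 RNA read on 4 arrays, so these values have no replicate check. The lung channels were therefore also compared directly, which leaves the pools out and depends on how the arrays are scaled. With each array centred on its median, Wt1 was lower by -0.71 ± 0.14 (SE, limma adjusted p = 0.00281) and Msln higher by 0.50 ± 0.12 (SE, limma adjusted p = 0.00779). Bnc1 was then at -0.41 (limma adjusted p = 0.0849), Lrrn4 at -0.28, Upk3b at -0.31 and Upk1b at -0.26 (limma adjusted p = 0.227), none of them called. That is 1 of 6 members lower and 1 higher, where 18.9% of all genes were called lower and 29.9% higher.

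Wt1 was called lower under each of the 4 scalings of the lung channel, between -1.02 and -0.66. Without centring, 4 members were lower (Wt1, Bnc1, Upk1b and Lrrn4) and Msln was higher, beside 30.3% and 21.1% of all genes, whose median shifted by -0.17. Centred on the 75th percentile, every member except Msln was called lower, beside 41.5% of all genes and a median shift of -0.29. After quantile normalization of the lung channel Wt1, Upk1b and Lrrn4 were called lower, at -0.66, -0.63 and -0.42, beside 14% of all genes. Msln was positive under all 4 scalings, from 0.12 to 0.50, and Bnc1 negative, from -0.71 to -0.36, each called under 2 of them.

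**Figure D3:**
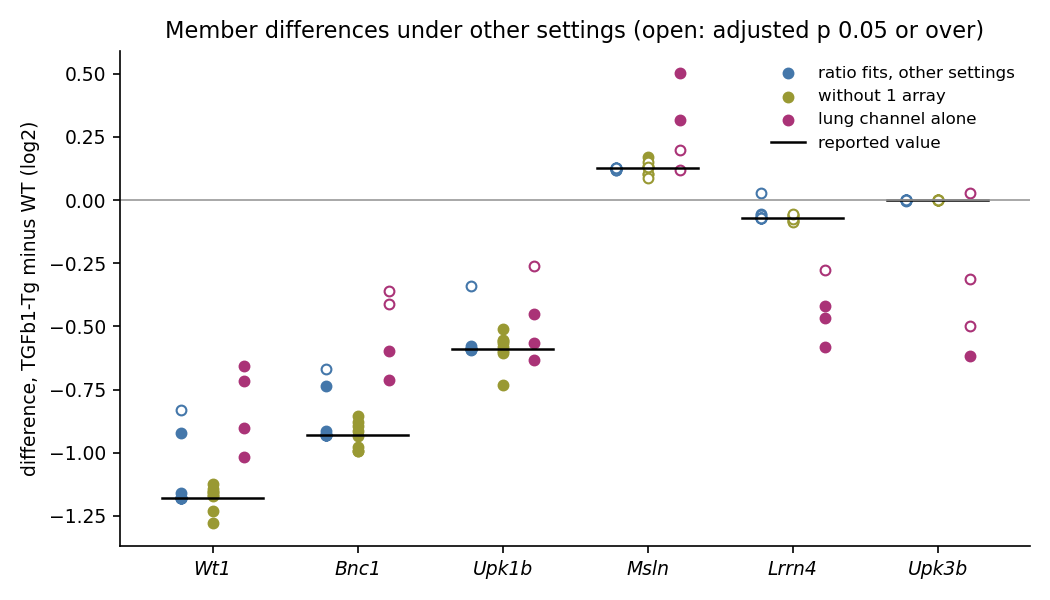
Difference in log2 units (y axis) for each member (x axis) under other settings of the ratio fit (blue), without 1 array (olive) and in the lung channel alone (purple), with open points where the adjusted p was 0.05 or over and a black line at the reported value. Wt1 is at -0.66 or lower at all points, while Lrrn4 and Upk3b move mostly with the lung channel.

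Genes that are enriched in mesothelium beyond these 6 were mostly lower as well. Of 12 listed and measured, 8 were called lower and 2 higher, beside 19.8% and 19% of all genes, and their median difference was -0.61. Rspo1, a secreted amplifier of Wnt signals, was at -1.08 ± 0.10 (SE, limma adjusted p = 0.000185), with log2 ratios of -0.18 to 0.25 in WT and -1.15 to -0.91 in TGFb1-Tg. Gpm6a, a membrane glycoprotein first known from neurons, was at -0.97 ± 0.14 (SE), with ratios of -0.33 to 0.32 in WT and -1.12 to -0.84 in TGFb1-Tg. The groups of neither gene overlapped. The genes called higher were Ildr2 at 0.56 ± 0.03 (SE) and Prr15 at 0.28 ± 0.05 (SE).

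The other 6 that were called lower, and the 2 that were not called, are named after their values were seen. Aldh1a2, the enzyme that makes retinoic acid in mesothelium and epicardium, was at -0.83 ± 0.09 (SE) and the tight junction gene Cldn15 at -0.77 ± 0.05 (SE). The zinc transporter Slc39a8 was at -0.71, Nkain4 at -0.62, the dim T-box gene Tbx18 at -0.60 and Muc16, the mucin that binds mesothelin, at -0.45 ± 0.03 (SE). Calb2, which encodes the mesothelial marker calretinin, and Wt1os, the antisense gene beside Wt1, had intensities of a few 0.01 steps and were not called. In the median-centred lung channel 8 of the 12 were again lower and 2 higher, with a median of -0.51, beside 18.9% and 29.9% of all genes. The genes differed: there Slc39a8 was at -0.03 and not called, and Wt1os was called lower.

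Keratins and surface genes that mesothelium shares with lung epithelium moved the other way. Of 8 measured, 6 were called higher and 0 lower (median difference 0.67), beside 19% and 19.8% of all genes. The filament partners Krt18 and Krt8, which mesothelium and simple epithelia both make, were at 1.09 ± 0.11 and 0.96 ± 0.15 (SE). Pdpn, the podoplanin of mesothelium, lymphatic vessels and alveolar type 1 cells, was at 0.18 (limma adjusted p = 0.417) and the membrane linker Ezr at 0.14 (limma adjusted p = 0.0533). In the median-centred lung channel all 8 were called higher, beside 29.9% of all genes. RNA of whole lung does not show which cells carried these keratins.

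**Figure D4:**
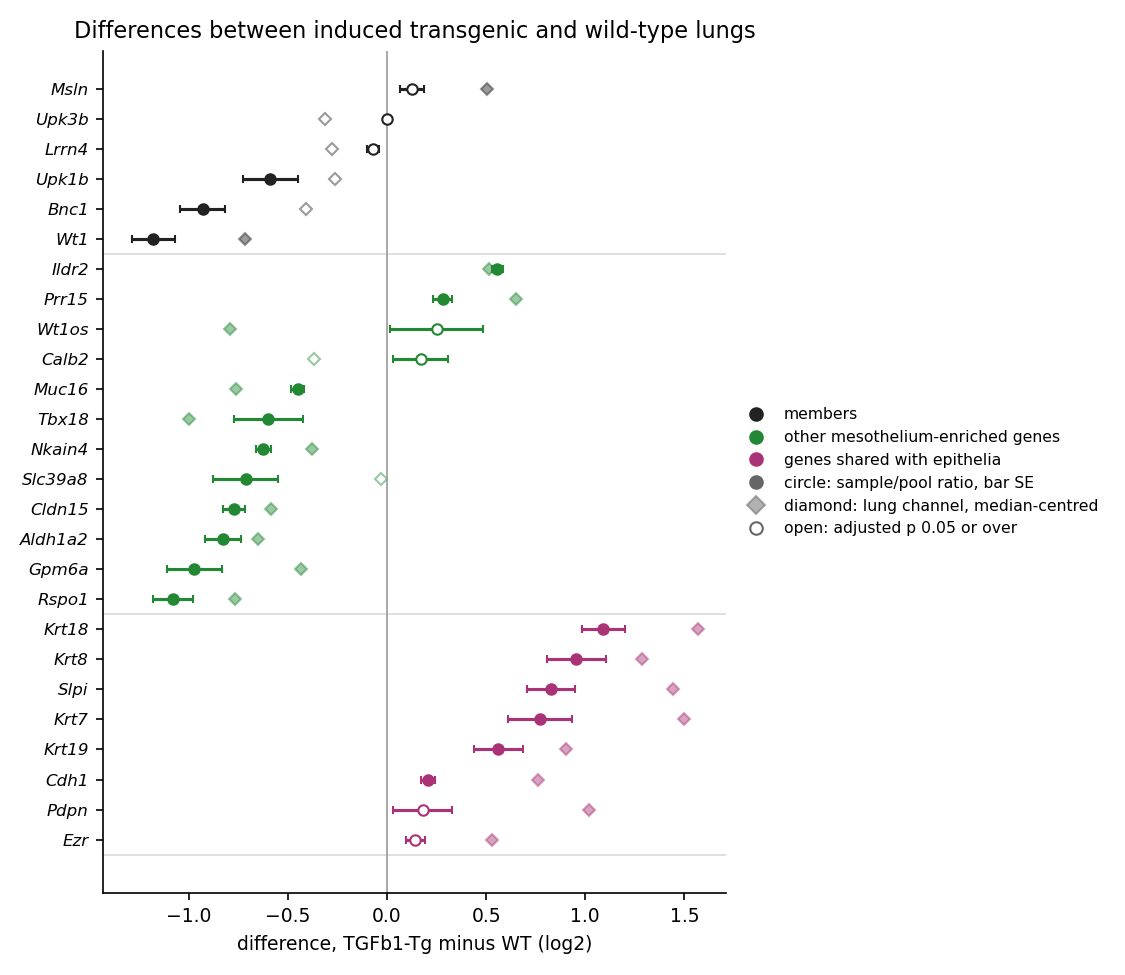
Difference TGFb1-Tg minus WT in log2 units (x axis) for the 6 members (black), 12 other mesothelium-enriched genes (green) and 8 genes shared with epithelia (purple), as the ratio with its SE (circles) and in the median-centred lung channel (diamonds); open symbols had an adjusted p of 0.05 or over. Rspo1, Gpm6a and Wt1 stand at the left, between -1.18 and -0.97, and Krt18 at the right at 1.09.

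Relatives of the members within their gene families behaved unevenly. Of 6 uroplakin genes, Upk1b and Upk3b among them, 3 were called lower and 0 higher (median -0.35), beside 19.8% and 19% of all genes. Upk3a and Upk2, partners of the bladder plaque, were at -1.87 ± 0.25 and -0.86 ± 0.04 (SE), and Upk3bl was at 0.18 and not called. Upk3a had a mean lung intensity of 0.0363, near 4 of the file's 0.01 steps, so that its size is approximate. In the median-centred lung channel Upk2 was at -0.20 and not called, and Upk3bl at -0.56 and called lower. Of 5 genes of the Lrrn family, Lrrn3 was called lower at -1.55 ± 0.10 (SE), and Lrrn2 and Lrrn1 higher at 0.50 and 0.31, beside the same 19.8% and 19% of all genes. Both of the latter were dim, and neither was called in the median-centred lung channel.

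Genes reported elsewhere as targets of the WT1 protein did not move in 1 direction. The list does not set apart targets that WT1 is reported to raise from those it is reported to lower. Whether the targets followed Wt1 was therefore not tested. Of 12 measured, 3 were called higher and 4 lower, with a median difference of 0.02, beside 19% and 19.8% of all genes. Areg, a ligand of the EGF receptor, was the highest at 2.70 ± 0.16 (SE), and Pdgfa followed at 0.38 ± 0.05 (SE). Aldh1a2 was the lowest at -0.83, and the growth factor receptor gene Igf1r was at -0.39 ± 0.02 (SE). In the median-centred lung channel 4 were called higher and 1 lower, the latter Aldh1a2, beside 29.9% and 18.9% of all genes, so the share called higher was near that of all genes.

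Markers of heart muscle and fat, tissues that lie beside the lung, moved with the groups. The counts of the ratios that follow stand beside 19.8% of all genes called lower and 19% higher. All 11 cardiac muscle markers were called lower (median -1.40), and their summed lung intensity was 48.2 to 59.8 in WT and 22.04 to 25.6 in TGFb1-Tg. Of 8 fat cell markers 7 were called lower and 0 higher (median -1.10), with summed intensities of 8.24 to 12.4 and 2.87 to 4.37. Of the cardiac and fat markers 1 of 11 and 3 of 8 were dim, that is under 0.1 in mean intensity in a channel. The 4 endothelial markers were all called lower (median -0.44), fibroblast markers were split with 3 higher and 3 lower, leukocyte markers with 1 and 1 of 4. The 6 bladder and squamous epithelium markers had 3 lower and 0 higher, and of 3 lung epithelium markers with enough values 1 was higher and 1 lower. In the median-centred lung channel 18.9% of all genes were called lower and 29.9% higher. There 10 of 11 cardiac, 6 of 8 fat and 3 of 4 endothelial markers were lower and 0 higher. Leukocyte markers had 2 higher and 0 lower, and fibroblast markers 3 higher and 2 lower. The counts of the bladder and lung epithelium lists stayed the same. The part of these tissues in the fall of Wt1, which epicardium also expresses, and of the other mesothelial genes was not tested.

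Within a group the members did not vary as 1 block. WT replicate 3 had the lowest ratio of Wt1, Upk1b and Bnc1, at -0.28, -0.46 and -0.16, and a median of -0.14 over the 12 other mesothelium-enriched genes. In WT replicate 2 that median was 0.04. The 8 genes shared with epithelia also had their lowest WT median in replicate 3, at -0.15, and were at 0.11 in replicate 2. Marker lists of other tissues went both ways in replicate 3, with medians such as 0.17 for endothelium and -0.12 for fat. As a description over the 8 arrays, which share a pool within each set, deviations from the group mean correlated at r = 0.92 between Msln and Bnc1, 0.81 between Wt1 and Upk1b and 0.65 between Wt1 and Bnc1. Lrrn4 had r = -0.04 with Wt1 and 0.04 with Bnc1. The genes whose deviations most resembled the mean of the members, out of 16292 compared, were Ccdc92, Otud1, Rnls, Mcu and Mmut, at r of 0.97 to 0.96 over 8 arrays. Upk3b, which did not vary, was left out of that mean. The highest r out of so many genes over so few arrays can be this high by chance, which was not tested.

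**Figure D5:**
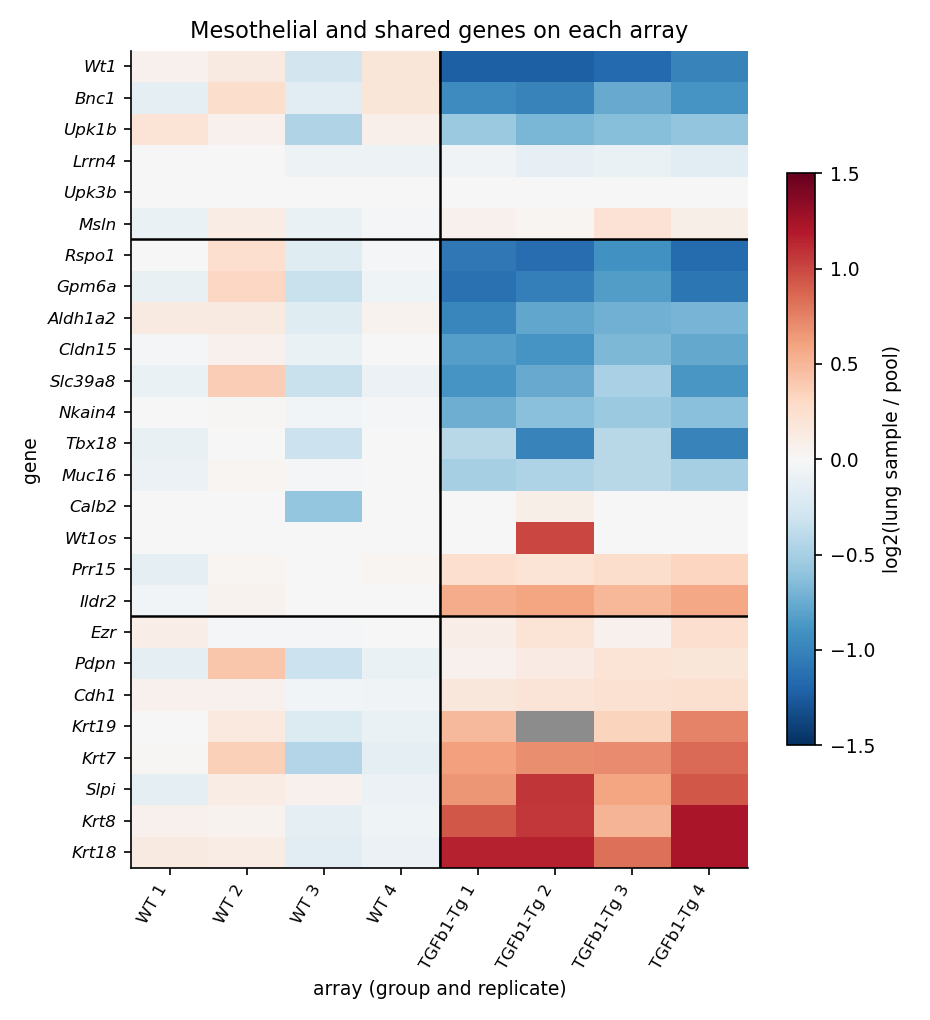
Log2 of lung over pool intensity (colour, blue below 0 and red above) for the mesothelial genes, 12 other mesothelium-enriched genes and 8 genes shared with epithelia (rows) on each of the 8 arrays (columns), with a missing value in grey. The 4 TGFb1-Tg columns are all below 0 for Wt1, Bnc1 and Upk1b, while WT replicate 3 is the WT column with the lowest ratio of each.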

How the data were processed

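Lung RNA was extracted with Trizol and 100 ng amplified, per the labels' protocols, and arrays were read with Agilent Feature Extraction 8.5.1.1, per the submitters' processing notes. The authors deposited an intensity for each channel, scaled to small decimals and given to 2 decimals from 0.01 up, and a p-value per probe and array; the deposited value table held log10 ratios that matched log10 of lung over pool within 0.005 for 100% of the probes of each array. Background correction, dye normalization and genome build: not stated in the sources used here.

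Between 39039 and 39281 probes were measured per array. Member probes kept the file's symbol; of the others, 6973 were named by RefSeq accession and the rest by the file's symbol, current or updated through the GRCm38.p6 gene table where it matched, and a gene is the mean of its probes (25734 genes from 30063 probes). Log2 ratios were tested between groups with limma 3.58.1 in R 4.3.3 (lmFit and eBayes, two-sided, at least 2 values per group, Benjamini-Hochberg over all genes); the fit was tested on simulated data. Python 3.11.15 with pandas 2.3.3 and matplotlib 3.10.9 did the rest. Every member was named; of the mesothelial, epithelium-shared, family and WT1 target lists up to 2 highest and 2 lowest genes, any others being said to be named later or standing only in a figure; markers of other tissues are given by counts. The members and lists were chosen with earlier results of these data known. The alternatives covered scaling, pools, filters, probes, variance model, replicate block and each array left out.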

Additional observations from a re-analysis of the deposited data

Results flagged for a closer look

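Of 42 sets of 4 values screened (7 probes, both groups, 3 measures), 3 held a sample far from the other 3. For continuous and separate sets chance gives about 1 in 20. These sets are neither, since the ratio is made from both channels and readings tie at the 0.01 step. Where the other 3 readings tie, as for Wt1 and Bnc1, any departure is flagged. The lung intensity of Wt1 was 0.13 in TGFb1-Tg replicate 4 against 0.12 in the other 3, a single 0.01 step. The log2 ratio of the second Msln probe was 0.26 in TGFb1-Tg replicate 3 against 0.06 to 0.10 in the others. The lung intensity of Bnc1 was 0.16 in TGFb1-Tg replicate 3 against 0.13 in the other 3.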

How the results depend on the processing

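Upk3b, at 0 in the ratios, has no direction to keep. Of 110 values of the other 5 members under 22 alternatives, 3 of which (other scalings of the lung channel) were chosen after seeing the data, 97 kept their direction and side of the threshold. Several alternatives, such as centring the ratios on the array median or the brightest probe, left most of these differences unchanged. The 97 are thus not separate checks. Quantile normalization of the ratios left 2708 genes called in place of 9956 and 0 of 6 members in place of 3, with Wt1 at -0.83 (limma adjusted p = 0.0790), Bnc1 at -0.67, Upk1b at -0.34 and Lrrn4 turned to 0.028. In the lung channel centred on the median, Msln was called at 0.50, while Upk1b (-0.26) and Bnc1 (-0.41) were not. Without centring, 5 members were called, with Msln at 0.32 and Lrrn4 at -0.46; on the 75th percentile also 5, with Upk3b at -0.62 and Lrrn4 at -0.58; and after quantile normalization of the channel Lrrn4 was called at -0.42 and Bnc1 (-0.36) was not. The cause of these changes was not tested. Of all calls, 49.0% were higher in the ratios, and 61.3% in the median-centred lung channel, 58.8% in the quantile-normalized one and 26.2% in that centred on the 75th percentile.

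Leaving out each array in turn gave 8776 to 9394 calls and kept 39 of 40 values of those 5 members on their side; Wt1 ran from -1.28 to -1.12, Bnc1 from -0.99 to -0.85, Upk1b from -0.73 to -0.51, and Msln from 0.088 to 0.17, called without WT replicate 2. Replicate numbers did not pair the lungs (r of deviations -0.02 to 0.05 between lungs of the same number); with the replicate block 8942 genes were called and Wt1 (-1.18), Bnc1 (-0.93) and Upk1b (-0.59) stayed called. With only genes of a mean intensity of at least 0.1, Upk3b was not fitted. The 0.01 step of the intensities limits Upk3b most.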
